A study of Mus musculus with 12 samples.

Results

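The lecticans, the tenascins and the hyaluronan link proteins build the hyaluronan-based extracellular matrix of the central nervous system, and 10 of their genes were followed here in spinal cord white matter: Acan, Bcan, Ncan, Vcan, Cspg5, Hapln1, Hapln2, Hapln4, Tnr and Tnc. The genes were chosen by name, as the rows of the deposited count table whose Ensembl identifier carries one of these symbols, and 10 of 10 were found among 46078 identifiers and passed the filter on low counts. Lysolecithin injury split the families. Tnc, Ncan and Vcan were higher in injured than in naive tissue at both ages, Bcan, Hapln2, Hapln4 and Acan were lower, Hapln1 was lower in young mice, and Cspg5 and Tnr did not pass the test at either age.

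As background, hyaluronan is a long sugar chain spun out at the cell surface. Lecticans are chondroitin sulfate proteoglycans whose N-terminal domain binds hyaluronan, link proteins lock that bond, and tenascins join the C-terminal ends of lecticans to one another, so that the families together form a mesh. The mesh is dense around neurons and at nodes of Ranvier, and the chondroitin sulfate proteoglycans of lesions are known to hold back axon growth and the maturation of oligodendrocyte progenitors.

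The samples were C57Bl6 mice, young (6 weeks) or middle-aged (8 months), either naive or taken 72 h after lysolecithin, a detergent-like lipid that strips myelin, had been injected into the ventrolateral white matter. That area was cut from cresyl violet-stained sections by laser capture, so every library held a mixture of cells, and its RNA was amplified while the libraries were built. Each of the 4 groups (young naive, middle-aged naive, young injured, middle-aged injured) had 3 libraries, and each library pooled 5 mice. The naive tissue was not injected, so injury by the toxin and injury by the needle cannot be told apart.

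Libraries held 9834447 to 12807437 counted reads, so that 3 counts, the most that a count of 0 allows, corresponded to 0.234 to 0.305 CPM (counts scaled to a fixed library total), and 8.12 to 16.0% of reads came from mitochondrial genes. The captured tissue carried white matter markers, since the summed level of 6 oligodendrocyte genes was 86699 to 101953 CPM in young naive and 53009 to 60301 CPM in middle-aged naive pools. With injury this sum dropped to 18251 to 20256 CPM in young and 7930 to 12447 CPM in middle-aged pools, while the sum of 6 myeloid genes was 71.8 to 102 CPM in young naive, 110 to 147 CPM in middle-aged naive, 1373 to 1394 CPM in young injured and 1461 to 1950 CPM in middle-aged injured pools. In such bulk tissue, fewer cells of a type and less RNA per cell cannot be told apart. All 10 genes were read from a single edgeR quasi-likelihood fit of 15866 genes over the 12 pools. Adjusted p-values are Benjamini-Hochberg values over those genes, a gene is said to be called, to rise or to fall at an adjusted p under 0.05, levels are CPM on the TMM scale unless TPM is named, and errors of levels are SD over 3 pools.

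Tnc and Ncan rose and Bcan and Hapln2 fell at both ages, and these 4 genes were taken as examples with their values known. The 250 bases before their RefSeq start sites (build GRCm38.p6, read 5′ to 3′ on the strand of the gene) are shown so that a reader can compare the DNA in front of them, with the TATA box core (TATAAA) and the GC box (GGGCGG) in capitals wherever either occurred on either strand:
Tnc (chr4:64047016-64047265, minus strand): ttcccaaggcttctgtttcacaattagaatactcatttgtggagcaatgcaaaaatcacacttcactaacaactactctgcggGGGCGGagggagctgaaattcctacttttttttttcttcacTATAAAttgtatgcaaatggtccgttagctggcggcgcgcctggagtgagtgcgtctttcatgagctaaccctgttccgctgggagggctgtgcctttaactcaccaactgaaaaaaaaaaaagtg
Ncan (chr8:70120845-70121094, minus strand): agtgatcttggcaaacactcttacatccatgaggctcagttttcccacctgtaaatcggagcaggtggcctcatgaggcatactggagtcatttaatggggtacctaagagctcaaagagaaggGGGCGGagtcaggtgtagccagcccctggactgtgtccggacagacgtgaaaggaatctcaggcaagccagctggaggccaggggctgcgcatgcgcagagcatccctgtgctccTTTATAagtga
Bcan (chr3:88000357-88000606, minus strand): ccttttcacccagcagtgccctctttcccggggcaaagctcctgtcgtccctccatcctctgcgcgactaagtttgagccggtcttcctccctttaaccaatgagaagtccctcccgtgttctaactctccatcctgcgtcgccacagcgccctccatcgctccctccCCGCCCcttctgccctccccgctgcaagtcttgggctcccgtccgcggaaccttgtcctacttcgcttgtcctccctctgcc
Hapln2 (chr3:88027512-88027761, minus strand): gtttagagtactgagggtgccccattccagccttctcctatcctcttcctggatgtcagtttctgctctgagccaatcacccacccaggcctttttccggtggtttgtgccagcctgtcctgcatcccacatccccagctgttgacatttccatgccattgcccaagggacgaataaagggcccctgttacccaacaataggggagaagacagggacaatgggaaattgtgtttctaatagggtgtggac
The Tnc and Ncan stretches held both motifs, the Bcan stretch held a GC box alone, and the Hapln2 stretch held neither. The motifs did not divide genes that rose from genes that fell, since the stretch before Vcan, which rose at both ages, held GC boxes and no TATA core, as did those of Bcan and Acan. Of the 8 genes with a promoter listed by RefSeq (Cspg5 and Hapln4 have none in that list, and the overlapping windows of both Tnc starts were counted once), 2 held a TATA core and 5 held a GC box, against 12.4% and 32.7% of all 32851 mouse promoters of the same length. These matches are a description of letters in a window and say nothing of which factors were bound.

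Injury moved the lecticans in both directions. Bcan encodes brevican, the brain-specific lectican made mainly by astrocytes and oligodendrocyte progenitors. It measured 70.2, 63.7 and 65.7 CPM in the young naive pools and 15.8, 19.8 and 24.9 CPM in the young injured pools. In middle-aged mice it measured 45.1, 76.0 and 60.1 CPM in naive and 5.23, 5.59 and 4.58 CPM in injured pools. The naive and injured pools stood apart at both ages, and the 3 middle-aged injured pools were the lowest of all 12. Its log2 fold change was -1.72 ± 0.20 (SE, adjusted p = 4.38e-06) for young mice, and -3.55 ± 0.22 (SE, adjusted p = 8.84e-09) for middle-aged mice, which is a 3.30-fold and an 11.7-fold drop.

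Ncan encodes neurocan, a lectican of developing brain that reactive astrocytes are known to make again. Its level was 80.4, 55.0 and 54.4 CPM in young naive and 125, 113 and 123 CPM in young injured pools. The middle-aged naive pools held 26.7, 20.0 and 34.6 CPM and the middle-aged injured pools 67.2, 81.1 and 70.1 CPM. Injured pools were above naive pools of the same age without overlap, but middle-aged injured pools only reached the range of the young naive ones. Injury changed Ncan by 0.93 ± 0.19 (SE, adjusted p = 0.000772) at the younger age and by 1.42 ± 0.19 (SE, adjusted p = 2.06e-05) at the older age, on the log2 scale. Of 6 astrocyte markers, 5 fell at each age, Gfap among them. Their median log2 fold change was -1.30 in young and -1.42 in middle-aged mice. The part of these markers in the Ncan and Bcan values was not tested.

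Vcan encodes versican, the largest lectican, made by oligodendrocyte progenitors, fibroblasts and myeloid cells. The young naive pools held 49.7, 48.1 and 68.7 CPM and the young injured pools 134, 163 and 186 CPM. In middle-aged mice the values were 45.5, 33.5 and 45.4 CPM in naive and 101, 94.3 and 90.9 CPM in injured pools. No pool of any group overlapped with a pool of the next group in the order of the means, which ran from middle-aged naive over young naive and middle-aged injured to young injured. Injury raised Vcan by a log2 fold change of 1.53 ± 0.17 (SE, adjusted p = 3.14e-06) at the younger age and 1.20 ± 0.17 (SE, adjusted p = 3.06e-05) at the older age.

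Acan encodes aggrecan, the main lectican of cartilage and of the nets around neurons, and had the smallest share of the 4 lecticans per transcript length in each group mean, 0.791 to 3.57% of their summed TPM. It reached 5.10, 15.6 and 2.90 CPM in young naive, 3.55, 3.15 and 6.88 CPM in middle-aged naive, 2.42, 1.24 and 3.31 CPM in young injured and 0.747, 1.36 and 1.12 CPM in middle-aged injured pools. The young naive pools spread over a wide range and overlapped with the young injured ones, whereas the middle-aged groups did not overlap. The log2 fold change of Acan was -1.76 ± 0.55 (SE, adjusted p = 0.0144) at the younger age and -2.07 ± 0.60 (SE, adjusted p = 0.00868) at the older age. The young call rested on single pools: the log2 fold change was -0.78 (adjusted p = 0.206) without young naive pool 2 and -1.45 (adjusted p = 0.0658) without young injured pool 2.

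Cspg5 encodes neuroglycan C, a membrane-spanning chondroitin sulfate proteoglycan that is no lectican and is known as a ligand of ErbB3. Its group means were 134 ± 11.9, 134 ± 22.1, 132 ± 18.0 and 119 ± 9.50 CPM in young naive, middle-aged naive, young injured and middle-aged injured pools (SD, n = 3 each). The 12 pools lay between 113 and 159.6 CPM, and neighbouring groups overlapped throughout. The injury difference was -0.02 ± 0.14 (SE, adjusted p = 0.919) at the younger age and -0.17 ± 0.14 (SE, adjusted p = 0.308) at the older age on the log2 scale, neither of which passed the test.

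**Figure D1:**
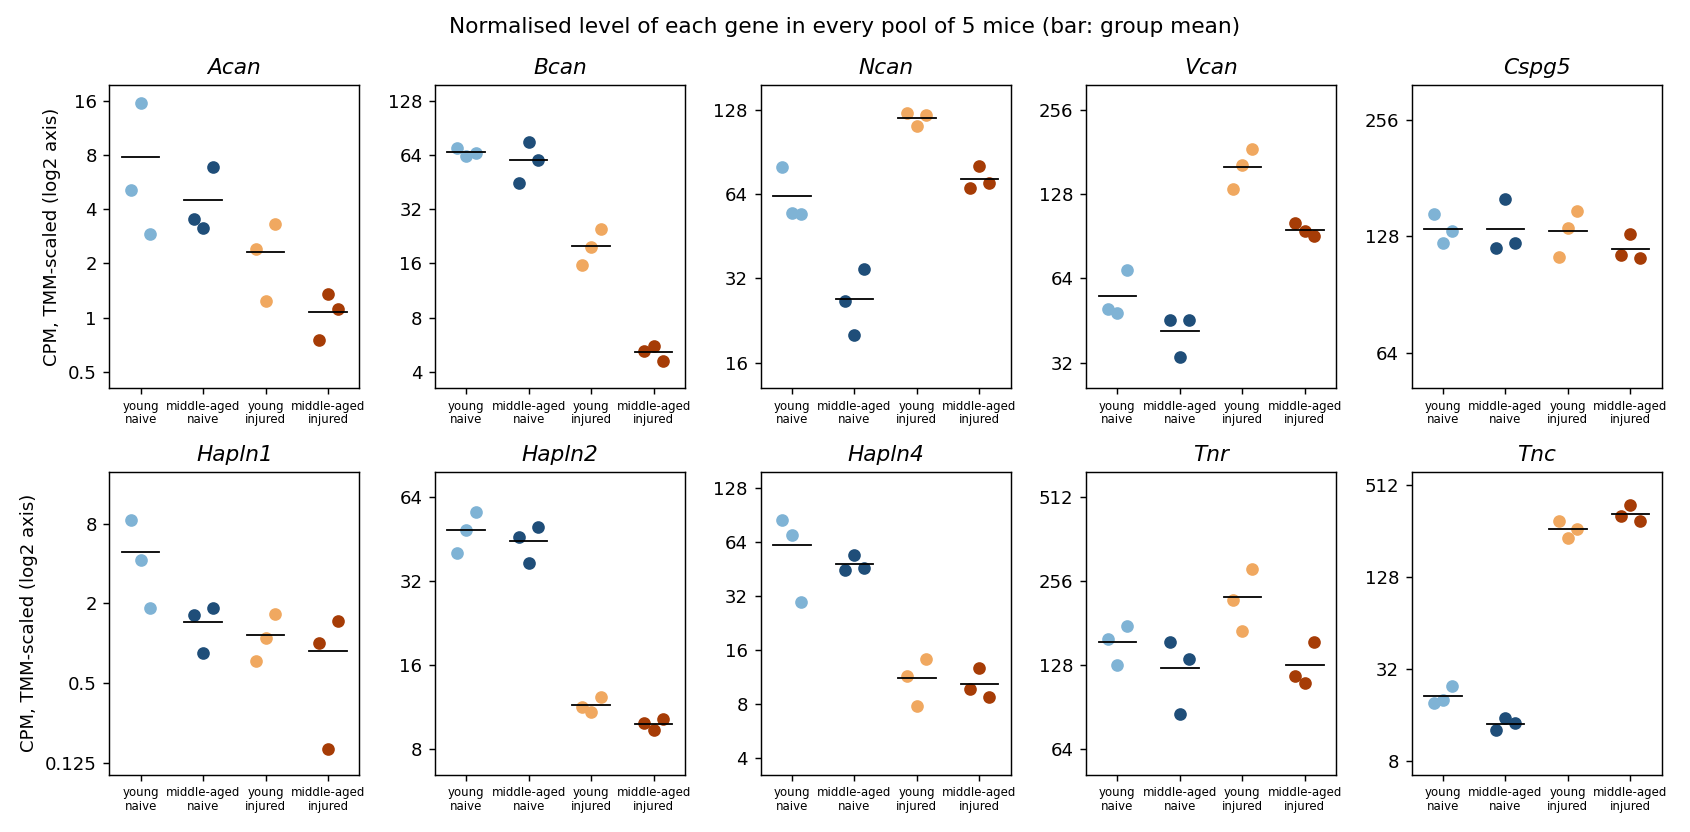
Levels of the 10 genes in each of the 12 pools (CPM on the TMM scale, log2 axis that differs between panels), by group, with black bars at the group means. Tnc shows the widest gap between naive and injured pools, Bcan is lowest in the middle-aged injured pools at 4.58 to 5.59 CPM, and Cspg5 stays between 113 and 159.6 CPM.

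The link protein transcripts were lower after injury at both ages, except that Hapln1 did not pass the test in middle-aged mice. Hapln2 encodes the link protein of central nodes of Ranvier (Bral1), which oligodendrocytes are known to supply. Its level was 40.5, 48.9 and 56.6 CPM in young naive and 11.4, 10.9 and 12.3 CPM in young injured pools. The middle-aged naive pools held 46.0, 37.1 and 49.9 CPM and the middle-aged injured pools 9.96, 9.42 and 10.3 CPM. Each injured group was tight and lay far below both naive groups. Injury changed Hapln2 by -2.07 ± 0.17 (SE, adjusted p = 1.28e-07) in the young group and by -2.17 ± 0.17 (SE, adjusted p = 8.05e-08) in the middle-aged group on the log2 scale, close to the oligodendrocyte markers, whose median was -2.10 and -2.39 and of which 6 of 6 fell at each age. What share of the Hapln2 drop goes with those markers was not tested.

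Hapln4 encodes the brain link protein Bral2, which partners brevican in nets around neurons. It measured 84.5, 70.3 and 29.8 CPM in young naive and 44.7, 54.2 and 46.1 CPM in middle-aged naive pools. After injury it measured 11.5, 7.83 and 14.4 CPM in young and 9.71, 12.7 and 8.81 CPM in middle-aged pools. Injured and naive pools did not overlap at either age, and young naive pool 3 was the lowest naive pool. On the log2 scale injury changed Hapln4 by -2.46 ± 0.32 (SE, adjusted p = 1.63e-05) at the younger and -2.21 ± 0.32 (SE, adjusted p = 3.88e-05) at the older age. Over the 3 young naive pools the summed level of 6 neuronal markers was 3278, 2311 and 1264 CPM, in the same order as Hapln4, and over all injured pools it was 443 to 666 CPM against 1264 to 3278 CPM in naive pools. Of these 6 markers, 4 fell and 0 rose with injury in young mice. In middle-aged mice 5 fell and 1, Slc17a6, rose. Hapln1 had the order of the neuronal sum over the young naive pools (8.47, 4.26 and 1.83 CPM), and Acan did not (5.10, 15.6 and 2.90 CPM). In the other groups the orders differed in part. Hapln4 followed the neuronal sum over the middle-aged naive and young injured pools but not over the middle-aged injured pools. Hapln1 followed it in none of these groups, and Acan in the young injured pools only. The part of these markers in the Hapln4, Hapln1 and Acan values was not tested.

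Hapln1 encodes the cartilage link protein, which also sits in nets around neurons, and it was scarce, with raw counts of 2 to 93 reads per pool. The levels were 8.47, 4.26 and 1.83 CPM in young naive, 1.63, 0.839 and 1.84 CPM in middle-aged naive, 0.734, 1.09 and 1.66 CPM in young injured and 0.996, 0.160 and 1.47 CPM in middle-aged injured pools. Young naive and young injured pools just missed each other, and the middle-aged groups overlapped. The log2 fold change was -2.06 ± 0.63 (SE, adjusted p = 0.0127) in young mice, and the middle-aged difference of -0.73 ± 0.68 (SE, adjusted p = 0.375) did not pass the test. The young call was lost without young naive pool 1 (-1.39, adjusted p = 0.104) and without young injured pool 1 (-1.81, adjusted p = 0.0567). Middle-aged injured pool 2 held 2 reads, under the floor of 3 counts, and the other injured pools held 10 to 22 reads.

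The tenascins, which cross-link lecticans, parted company. Tnc encodes tenascin-C, the tenascin of development, wounds and lesions. It measured 19.0, 20.1 and 24.9 CPM in young naive and 12.7, 15.2 and 14.2 CPM in middle-aged naive pools. After injury it measured 299, 233 and 266 CPM in young and 323, 379 and 299 CPM in middle-aged pools. Every injured pool was above every naive pool by a wide margin. The log2 fold change of 3.64 ± 0.15 (SE, adjusted p = 2.79e-10) at the younger age and 4.57 ± 0.16 (SE, adjusted p = 8.05e-11) at the older age is a 12.5-fold and a 23.8-fold rise, higher than that of all but 4.97% and 2.62% of the genes tested. An antisense gene, 8030451A03Rik, overlaps Tnc exons and went from 0 to 6 reads in naive pools to 48 to 141 reads in injured pools. Whether the counting kept strands apart is not given in the sources used here, and reads of such a pair cannot be told apart without strand.

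Tnr encodes tenascin-R, the tenascin of mature white matter, made by oligodendrocytes and some neurons. It measured 159, 128 and 178 CPM in young naive and 219, 170.4 and 282 CPM in young injured pools. The middle-aged values were 154, 85.7 and 134 CPM in naive and 117, 111 and 155 CPM in injured pools. The young injured pools held the 2 highest of the 12 values but overlapped with the young naive pools. The log2 difference was 0.53 ± 0.22 (SE, adjusted p = 0.0564) at the younger age and 0.03 ± 0.22 (SE, adjusted p = 0.913) at the older age. The young difference missed the threshold in the fit of all 12 pools but passed it with DESeq2 (0.54, adjusted p = 0.0426), when the library totals alone set the scale (0.73, adjusted p = 0.0158) and without young injured pool 2 (0.70, adjusted p = 0.0240). It also passed with no filter on low counts (adjusted p = 0.00618), with a replicate block (0.00724) and in a fit of the young pools alone (0.0293). It stayed short of the threshold in 4 of the 9 alternatives other than leaving out a pool. The same held in 8 of 12 fits with 1 pool removed, and the difference was 0.33 (adjusted p = 0.269) without young injured pool 3. Tnr also has an antisense overlap, Gm38039, with 33 to 125 reads per pool.

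Counted together, 3 of the 10 genes rose and 5 fell in young mice, and 3 rose and 4 fell in middle-aged mice. With 3 pools per group an exact permutation test of 1 comparison cannot go below p = 0.1, so calls rest on the fit over all genes. Among all genes tested, 54.6% were called in young mice (28.3% higher and 26.3% lower) and 58.5% in middle-aged mice (29.2% higher and 29.3% lower). Since most genes were called, 8 of 10 and 7 of 10 are read as values of these genes and not as a mark of the family. The median log2 fold change of the 10 genes was -0.87 in young and -0.45 in middle-aged mice, with a median over all genes of 0.00 and -0.03. Pools of the injured and naive groups did not overlap for 7 of the 10 genes in young and 7 of 10 in middle-aged mice, a property of 67.2% and 61.1% of all genes tested. Over both ages at once, an exact two-sided permutation test of naive against injured pools within age (400 arrangements) gave p = 0.005, the smallest it can give, for Bcan, Ncan, Vcan, Hapln2, Hapln4 and Tnc. The same exact permutation test gave p = 0.01 for Acan, 0.035 for Hapln1, 0.18 for Tnr and 0.375 for Cspg5. Scaling by library totals in place of TMM moved the median of all genes by 0.20 (young) and 0.11 (middle-aged), and the direction of every called injury effect of these genes was the same under it.

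**Figure D2:**
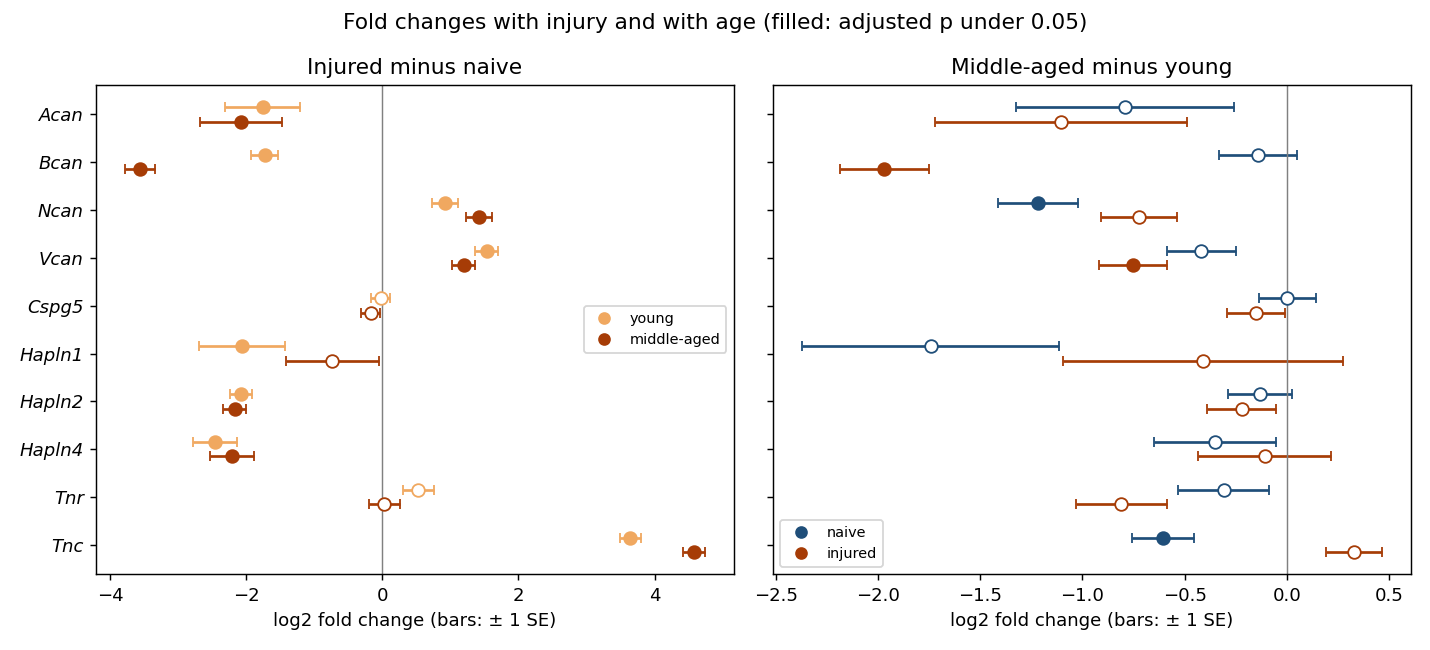
Log2 fold changes of the 10 genes with injury at each age (left) and with age in each state (right), with bars of 1 standard error and filled points for an adjusted p under 0.05. Tnc lies farthest to the right with injury, Bcan at -3.55 in middle-aged mice farthest to the left, and with age 4 points are filled, all below 0.

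Per transcript length the make-up of each family shifted with injury, which is given here in TPM (counts scaled to exon length and then to the same sum in each pool) as a description with no test. Bcan was 54.5 ± 1.49% of the summed TPM of the 4 lecticans in young naive and 66.6 ± 9.22% in middle-aged naive pools, but 14.9 ± 2.10% in the injured pools of young mice and 6.96 ± 0.403% in those of middle-aged mice. Ncan went from 29.0 ± 4.57% to 50.7 ± 4.95% of the lectican sum at the younger age, and at the older age from 17.3 ± 5.04% to 55.8 ± 2.76%. Vcan went from 12.9 ± 3.15% to 33.5 ± 2.98% at the younger age, and at the older age from 13.3 ± 3.76% to 36.5 ± 2.83%, while Acan never had a mean share over 3.57%. By TPM, brevican was thus the leading lectican transcript of naive tissue and neurocan that of injured tissue, at both ages. The lead of Ncan over Vcan rests on the exon lengths used, 7195 bp for Ncan and 14462 bp for Vcan. Without scaling to length, Vcan was above Ncan in the injured group means. Those were 161 against 120 CPM in young and 95.3 against 72.8 CPM in middle-aged mice. Which splice forms of Vcan were present was not tested. The sum of the 4 lecticans itself was 97.0 ± 6.44 TPM in young naive, 67.4 ± 8.61 TPM in middle-aged naive, 117 ± 13.7 TPM in young injured and 59.0 ± 4.78 TPM in middle-aged injured pools.

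Among the tenascins the ratio of Tnc to Tnr in TPM was 0.199 to 0.260 over the young naive pools and 0.136 to 0.294 over the middle-aged naive pools. After injury it was 1.56 to 2.26 at the younger and 3.19 to 5.67 at the older age. Tnr therefore led in all 6 naive pools and Tnc in all 6 injured pools. The make-up of the link proteins moved less than their sum. Hapln2 was 56.7 ± 16.7% of the summed link protein TPM in young naive, 59.6 ± 5.88% in middle-aged naive, 61.9 ± 5.62% in young injured and, last, 59.9 ± 4.46% in middle-aged injured pools, of a mean sum of 119, 96.0, 28.0 and 22.7 TPM in the same order.

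**Figure D3:**
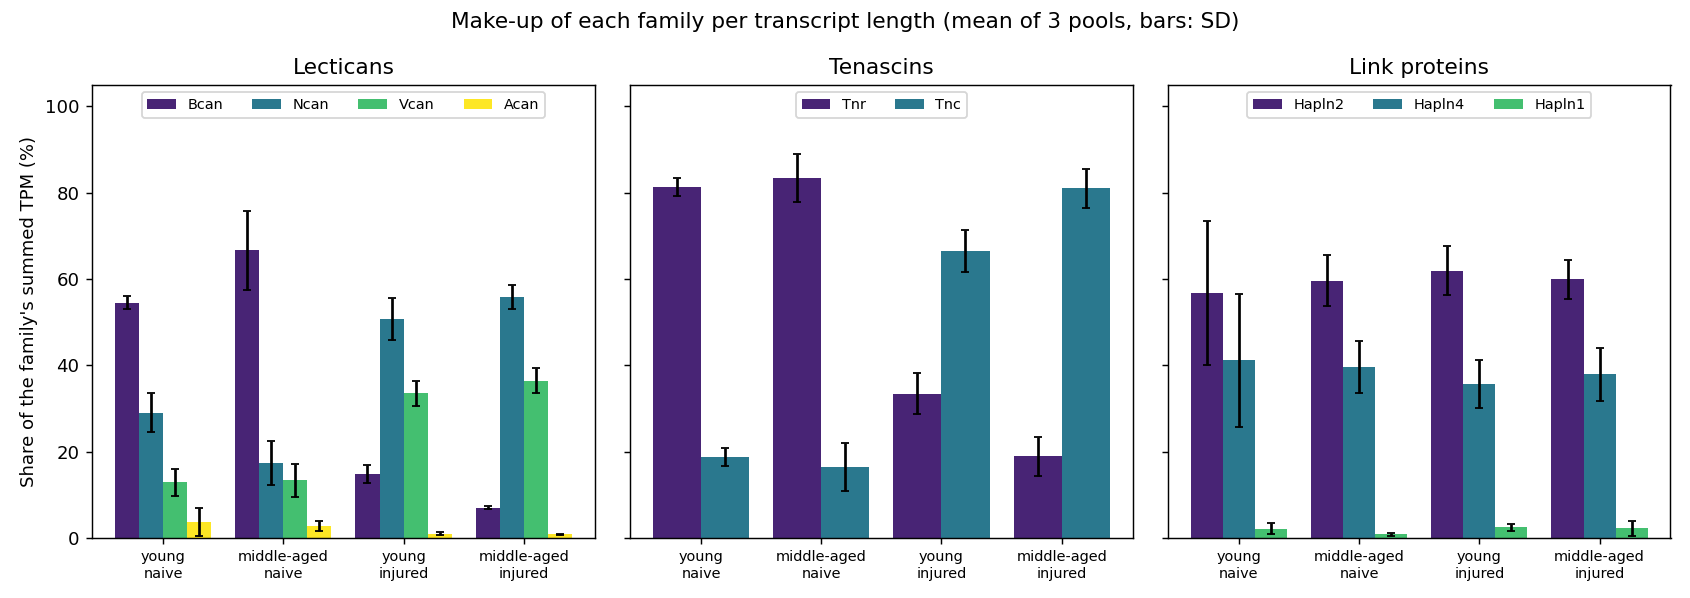
Share of each gene in the summed TPM of its family (percent, mean of 3 pools, bars SD) for the lecticans, the tenascins and the link proteins in the 4 groups. Bcan and Tnr lead in naive tissue, Ncan and Tnc lead in injured tissue, and the Hapln2 share stays between 56.7 and 61.9%.

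Each lectican gene has a link protein gene next to it, with no other protein-coding gene in between, so pairs on the same stretch of chromosome could be compared (GENCODE M21, GRCm38). Bcan (chr3:87987531-88000230, minus strand) lies 21519 bp from Hapln2 (chr3:88021750-88027583, minus strand). Both fell at both ages. Ncan (chr8:70093085-70120873, minus strand) and Hapln4 (chr8:70083457-70090862, plus strand) point toward each other and are 2222 bp apart. Here the lectican rose and the link protein fell, so that the Ncan to Hapln4 ratio in TPM went from 0.427 to 0.996 over young naive pools to 4.67 to 7.85 over young injured pools, and from 0.201 to 0.410 to 3.48 to 4.34 in middle-aged pools. Vcan (chr13:89655312-89742509, minus strand) and Hapln1 (chr13:89539796-89611652, plus strand) are 43659 bp apart, and in young mice Vcan rose while Hapln1 fell. Acan (chr7:79053483-79115099, plus strand) ends 2 bp from Hapln3 (chr7:79115102-79131018, minus strand), which had 0 to 6 reads per pool and was not tested.

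**Figure D4:**
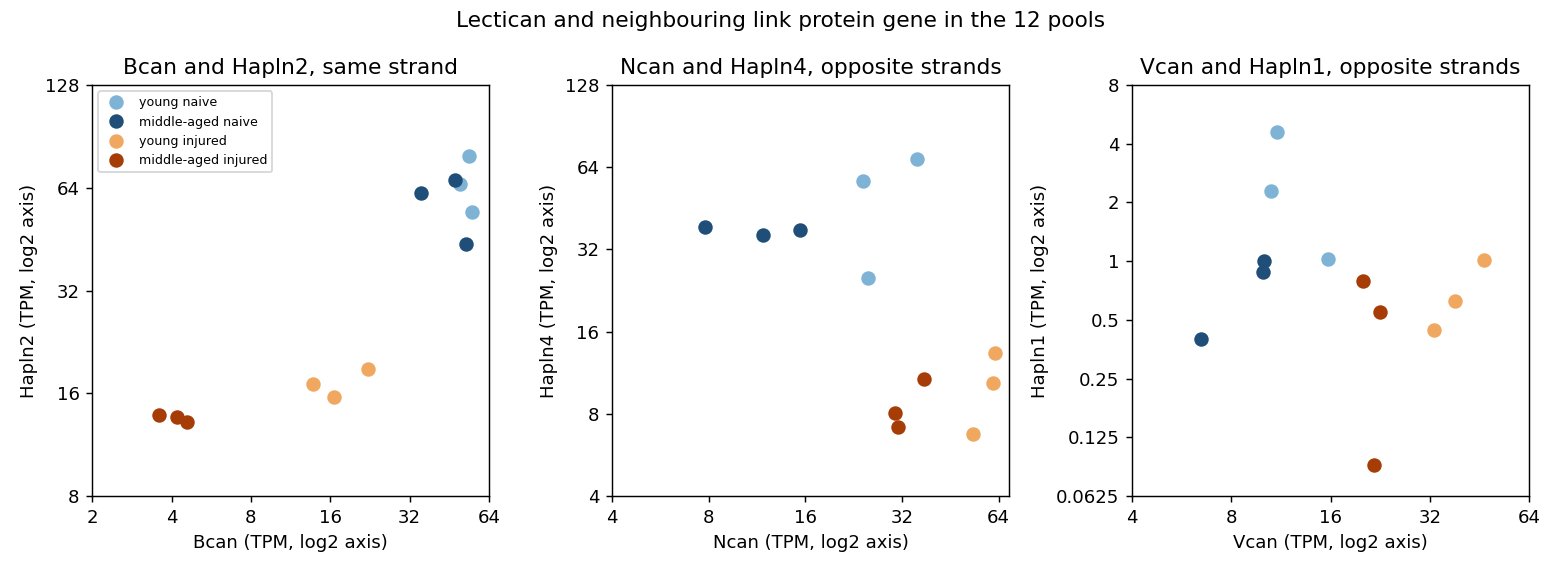
Level of each lectican (horizontal) against that of its neighbouring link protein gene (vertical) in the 12 pools, in TPM on log2 axes. Injured pools lie lower left of naive pools for Bcan and Hapln2, and lower right of the naive pools of their age for Ncan and Hapln4.

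The second question of the design was what age does. In naive tissue 2 of the 10 genes fell with age and 0 rose by edgeR (0 at an unadjusted p under 0.05, 0 with DESeq2), where 3.8% of all genes tested were called (2.02% higher and 1.78% lower). Ncan was 63.3 ± 14.8 CPM in young and 27.1 ± 7.31 CPM in middle-aged naive pools (SD, n = 3 each), a log2 difference of -1.22 ± 0.19 (SE, adjusted p = 0.00364), and the pools did not overlap. Tnc was 21.4 ± 3.14 CPM in young and 14.0 ± 1.28 CPM in middle-aged naive pools, a log2 difference of -0.61 ± 0.15 (SE, adjusted p = 0.0417), also without overlap. The Tnc call was close to the threshold and was kept in 1 of 12 fits with 1 pool removed, with adjusted p up to 0.120 without young naive pool 3 and 0.325 in a fit of the naive pools alone. The Ncan call was kept in all 12 such fits and lost in the fit of the naive pools alone (-1.21, adjusted p = 0.0815). Hapln1 had the largest difference, -1.74 ± 0.63 (SE, adjusted p = 0.152), which did not pass the test but did so with no filter on low counts (-1.75, adjusted p = 0.0290). At an unadjusted p under 0.05, 4 of the 10 genes were lower, as were 1354 of the 15866 genes tested.

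In injured tissue 2 of the 10 genes were lower in middle-aged than in young mice and 0 were higher by edgeR (1 at an unadjusted p under 0.05, 0 with DESeq2), against 1.15% of all genes called (0.24% higher and 0.908% lower). Bcan was 20.1 ± 4.55 CPM in young and 5.13 ± 0.514 CPM in middle-aged injured pools, a log2 difference of -1.97 ± 0.22 (SE, adjusted p = 0.00133). Vcan was 161 ± 26.0 CPM in young and 95.3 ± 4.97 CPM in middle-aged injured pools, a log2 difference of -0.75 ± 0.17 (SE, adjusted p = 0.0441). Leaving out pools ended the Vcan call in 8 of 12 fits, with adjusted p up to 0.291 without young injured pool 3, while the Bcan call was kept in 12 of 12. The Vcan call was also lost with median-of-ratios factors (adjusted p = 0.0519) and upper quartile factors (0.0561). Ncan (-0.72 ± 0.19 (SE, adjusted p = 0.0920)) and Tnr (-0.81 ± 0.22 (SE, adjusted p = 0.118)) were lower without overlap of the pools but did not pass the test. Both were called with DESeq2 (adjusted p = 0.0199 and 0.0346) and without middle-aged naive pool 2 (adjusted p = 0.0223 and 0.0299). Both also passed in a fit of the injured pools alone (adjusted p = 0.00206 and 0.0211) and with no filter on low counts (0.0054 and 0.00098). Of the 9 alternatives other than leaving out a pool, 6 left Ncan and 5 left Tnr uncalled, with adjusted p up to 0.103 and 0.133. In the other 11 fits with 1 pool removed neither passed, with adjusted p up to 0.369 for Ncan and 0.567 for Tnr. Tnc, at 0.33 ± 0.14 (SE, adjusted p = 0.404), was the only gene of the 10 that was higher in the middle-aged injured mean, and it did not pass the test.

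Over both states at once, the exact two-sided permutation test within state (400 arrangements) gave p = 0.005, the smallest it can give, for the age difference of Ncan and of Vcan. It gave 0.025 for Tnr, 0.03 for Bcan, 0.085 for Hapln1, 0.115 for Hapln2, 0.125 for Acan, 0.44 for Cspg5, 0.48 for Tnc and 0.59 for Hapln4 by the same exact permutation test. Pools of young and middle-aged mice did not overlap for Ncan, Vcan and Tnc in naive tissue and for Bcan, Ncan, Vcan, Hapln2 and Tnr in injured tissue. Over all genes tested, 17.1% (naive) and 23.3% (injured) showed no overlap between the ages. The summed oligodendrocyte markers were also lower in every middle-aged pool than in every young pool of the same state. So were the summed oligodendrocyte progenitor markers. They were 622 to 677 CPM in young naive, 439 to 528 CPM in middle-aged naive, 527 to 699.7 CPM in young injured and 454 to 479 CPM in middle-aged injured pools. Of the 6 progenitor markers, only 1, Gpr17, was called lower with age in each state, and 0 were called higher. The fibroblast markers were 657 to 1056 CPM in young injured and 302 to 581 CPM in middle-aged injured pools. The summed myeloid markers went the other way, higher in every middle-aged pool than in every young pool of the same state. Their sum was 71.8 to 102 CPM in young naive and 110 to 147 CPM in middle-aged naive pools. In injured pools it was 1373 to 1394 CPM in young and 1461 to 1950 CPM in middle-aged mice. The part of these shifts in the age differences of Vcan, Tnr and Bcan was not tested.

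Whether injury acted differently at the 2 ages was tested as the difference of the injury effects, middle-aged minus young. Bcan was the only gene of the 10 that was called, with a difference of -1.83 ± 0.29 (SE, adjusted p = 0.0264). Of all genes tested, 0.139% were called in this test (22 of 15866), and 0.0819% were called lower. Bcan fell by 1.72 in young and by 3.55 in middle-aged mice on the log2 scale, from naive levels whose difference with age did not pass the test (-0.14 ± 0.19, adjusted p = 0.748). The value lay between -2.0 and -1.63 over 12 fits with 1 pool removed, and the adjusted p exceeded 0.05 in 7 of them, with the highest at 0.103 without young naive pool 2. Astrocytes and oligodendrocyte progenitors are known sources of brevican. Astrocyte markers summed to 4979 to 5790 CPM in young injured and 3651 to 5138 CPM in middle-aged injured pools, and markers of oligodendrocyte progenitors to 527 to 699.7 CPM and 454 to 479 CPM, beside a 3.91-fold gap in Bcan between the same groups. The part of these markers in the Bcan values was not tested. Tnc had a difference of 0.93 ± 0.20 (SE, adjusted p = 0.102) in this test, which was called with DESeq2 (adjusted p = 0.0071) and without a filter on low counts but not in the fit of all 12 pools with the filter.

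Genes with a like profile over the 12 pools were looked up by the root mean square difference of centred log2 CPM, among 13085 genes with a mean log2 CPM of at least 1. The profile nearest to Hapln2 was that of Trim36 (0.0657), followed by Cep97 (0.0699) and Cpox (0.123). Among the genes near to Hapln4 were Ccdc184 (0.206) and the synaptic vesicle gene Vamp1 (0.209). For Bcan the nearest were Itih3 (0.339), whose product is carried on hyaluronan, Tmie (0.345) and Rab37 (0.378). Tnc was nearest to Rab32 (0.293), Dab2 (0.2996) and Il1rl2 (0.309). Vcan was nearest to Cenpq (0.242), Marcks (0.248) and Afap1l2 (0.250), and Ncan to Obsl1 (0.276), Plppr5 (0.319) and Nfatc2ip (0.324). Cspg5 lay nearest to Rbm18 (0.0831), Rps6kc1 (0.0925) and Tmub2 (0.101), and Tnr to Klhl13 (0.255), Lekr1 (0.261) and Gm9747 (0.264). The low-count genes had only distant neighbours, Acan with Cntnap1 (0.518), Nipal2 (0.534) and Gm26673 (0.546) and Hapln1 with Acvr1c (0.518), Sntg1 (0.597) and Zfp711 (0.601).

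The enzymes, receptors and proteases that make, bind and cut this matrix were read from 9 lists of 74 genes, of which 67 were tested. In young mice 39 rose and 12 fell with injury (median log2 fold change 1.23), and in middle-aged mice 41 rose and 14 fell (median 1.18), beside the shares of all genes given above. Hyaluronan synthesis and breakdown had 4 of 6 tested genes higher in young and 6 of 6 in middle-aged mice, and none lower. The synthase gene Has2 rose on the log2 scale by 2.76 ± 0.63 at the younger age (adjusted p = 0.00192) and by 3.78 ± 0.67 at the older age (adjusted p = 0.000216). The hyaluronidase gene Hyal1 rose by 1.13 ± 0.35 and 1.39 ± 0.34, Cemip2 by 1.06 ± 0.27 and 1.41 ± 0.27, and Cemip, which had 2 to 16 reads in naive pools, had 40 to 162 reads in injured pools. The young Hyal1 call was lost without young naive pool 1 (adjusted p = 0.0657) or young injured pool 2 (0.0617). Of 6 hyaluronan receptors, 6 rose in young and 5 in middle-aged mice, among them Cd44 (1.61 ± 0.14 and 2.20 ± 0.14), the scavenger receptor gene Stab1 (5.86 ± 0.24 and 5.17 ± 0.23), Hmmr (4.84 ± 0.37 and 4.25 ± 0.36) and Lyve1 (3.80 ± 0.57 and 3.43 ± 0.55).

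The chondroitin sulfate machinery moved less evenly. Of 12 genes of chain synthesis, 4 rose and 3 fell at each age, with Xylt1, which starts the chain, at 1.86 ± 0.56 and 1.64 ± 0.56, B4galt7 at 1.04 ± 0.13 and 0.93 ± 0.13, the polymerase gene Chsy1 at 1.78 ± 0.21 and 1.55 ± 0.21 and its relative Chsy3 at -1.77 ± 0.49 and -1.61 ± 0.53. The Xylt1 call was lost in young mice without young naive pool 2 (adjusted p = 0.0578) or young injured pool 2 (0.0505), and in middle-aged mice without middle-aged naive pool 2 (0.0556), middle-aged injured pool 1 (0.0787) or middle-aged injured pool 3 (0.0537). The middle-aged Chsy3 call was lost without middle-aged naive pool 3 (adjusted p = 0.0643) or middle-aged injured pool 3 (0.0784). Of 9 tested genes of sulfation and epimerisation, 4 rose and 2 fell in young mice, and 5 rose and 0 fell in middle-aged mice. Dse, which turns chondroitin into dermatan sulfate, rose by 3.20 ± 0.27 and 3.17 ± 0.27, Chst14 by 1.95 ± 0.35 and 2.50 ± 0.36, Chst11 by 1.42 ± 0.12 and 1.97 ± 0.12 and Chst7 by 1.55 ± 0.62 and 2.19 ± 0.62. The young Chst7 call (adjusted p = 0.0485) was lost in 9 of the 12 fits with a pool removed, with the highest adjusted p of 0.154 without young naive pool 1. Ust, a sulfotransferase named here after its values were seen, fell in young and rose in middle-aged mice (-0.70 ± 0.17 and 0.63 ± 0.17), a difference of 1.33 ± 0.24 (adjusted p = 0.0472) and the only call among the 67 genes in that test. The call was lost with upper quartile factors (adjusted p = 0.0565) and with library totals alone (adjusted p = 0.0692), and DESeq2 called 3 of these genes.

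Of the 7 ADAMTS proteases that cut lecticans, 5 rose and 2 fell at each age. Adamts4 fell by 1.40 ± 0.16 in young and by 1.48 ± 0.16 in middle-aged mice, and Adamts20 by 2.09 ± 0.31 and by 2.81 ± 0.33. Adamts5 rose by 2.20 ± 0.23 and 2.27 ± 0.23 and Adamts15 by 3.21 ± 0.63 and 2.18 ± 0.60, while Adamts8 went from 0 to 6 reads per naive pool to 37 to 84 reads per injured pool. Of 8 lysosomal enzymes that take the chains apart, 7 rose at each age, among them Gusb (4.45 ± 0.29 and 4.21 ± 0.29), Galns (4.0 ± 0.22 and 3.91 ± 0.22) and Hexa (3.51 ± 0.17 and 3.42 ± 0.16), and Ids fell in middle-aged mice. The 6 myeloid markers rose in the same pools, with a median of 4.34 and 3.6, and their part in the lysosomal and receptor values was not tested.

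Receptors and partners were mixed. Of 3 tested receptors for chondroitin sulfate proteoglycans, 1 rose and 1 fell in young mice, and 1 rose and 2 fell in middle-aged mice. Rtn4rl1 rose (1.87 ± 0.34 and 1.18 ± 0.32) and Ptprf fell (-0.59 ± 0.16 and -0.95 ± 0.16) at both ages, and Ptprs fell in middle-aged mice. Of 9 tested tenascin partners and receptors, 6 rose and 1 fell at each age, with Tlr4 at 4.62 ± 0.47 and 4.70 ± 0.46, Anxa2 at 2.70 ± 0.15 and 2.96 ± 0.16, Itgb1 at 1.73 ± 0.12 and 2.42 ± 0.12 and Itga9 at 1.27 ± 0.20 and 1.64 ± 0.21. The 1 gene that fell was Cntn1, the axonal partner of tenascin-R, at -1.37 ± 0.14 and -1.46 ± 0.14. Of 7 tested other proteoglycans and family members, 2 rose and 3 fell in young mice and 2 rose and 5 fell in middle-aged mice. Cspg4, the NG2 proteoglycan of oligodendrocyte progenitors, rose by 1.99 ± 0.24 and 1.83 ± 0.24, and Spock2 (-1.80 ± 0.18 and -2.25 ± 0.19) and Spock3 (-3.14 ± 0.20 and -3.38 ± 0.20) fell. Ptprz1 was at -0.06 ± 0.13 (adjusted p = 0.753) at the younger age and fell by 0.42 ± 0.13 (adjusted p = 0.0150) at the older, a call that was lost with library totals alone (-0.31, adjusted p = 0.0650) and without middle-aged injured pool 2 (-0.28, adjusted p = 0.0750). Tnn had 0 to 1 reads in naive and 4 to 14 in injured pools. The middle-aged fall of Tnxb, -2.68 ± 0.87 (adjusted p = 0.0159), rested on middle-aged naive pool 2 and was -0.67 (adjusted p = 0.391) without it. It also missed the threshold without middle-aged injured pool 2 (adjusted p = 0.0583) or 3 (0.0528). With age, 3 of the 67 tested genes rose and 3 fell in naive tissue, beside 2.02% and 1.78% of all genes tested. In injured tissue 0 rose and 0 fell by edgeR, beside 0.24% and 0.908% of all genes. There 6 higher and 6 lower genes of the lists had an unadjusted p under 0.05, beside 504 and 1023 of all 15866, and DESeq2 called 2 higher and 1 lower.

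**Figure D5:**
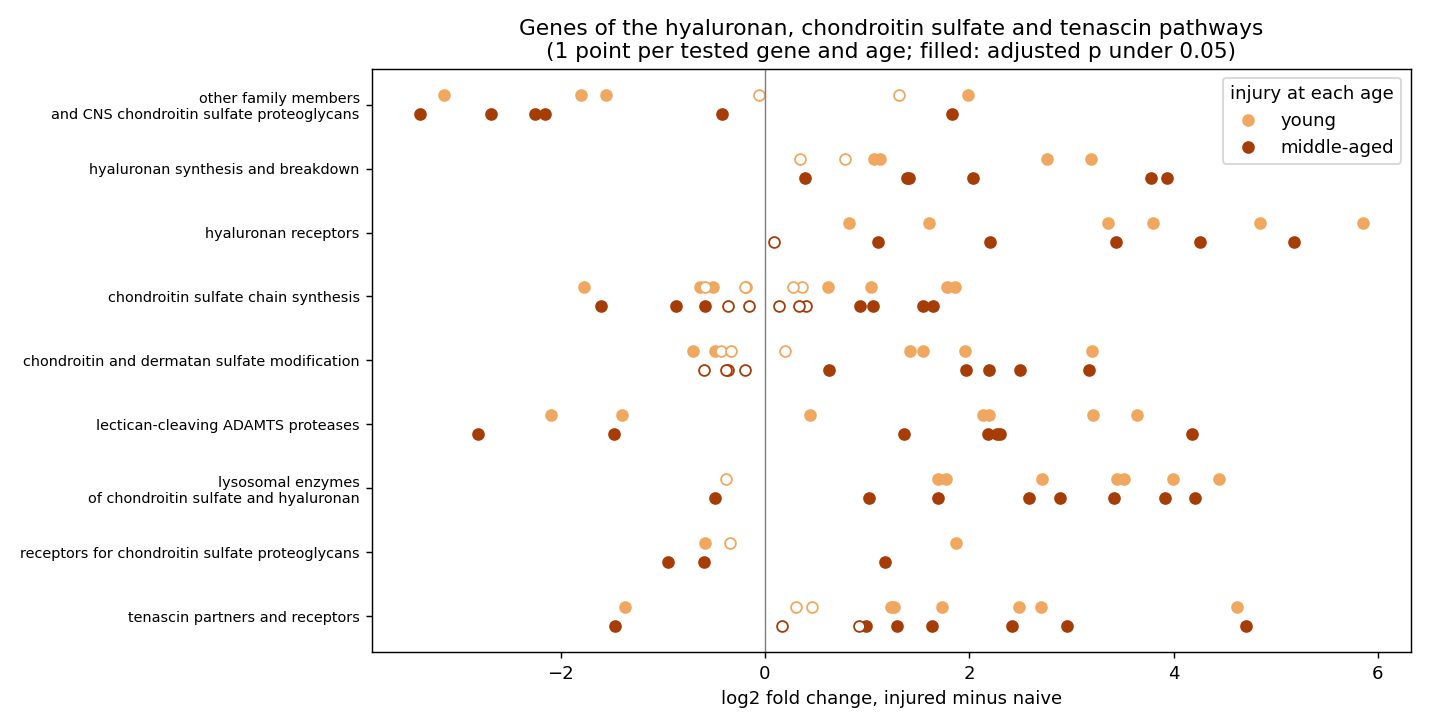
Log2 fold change with injury of each tested gene in the 9 lists, young mice above and middle-aged mice below in each row, filled where the adjusted p was under 0.05. Tnn, whose middle-aged naive pools were all at 0 reads, is left out, the hyaluronan receptors and all but 1 of the lysosomal enzymes lie to the right of 0, and genes of chain synthesis lie on both sides.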

How the data were processed

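RNA from laser-captured ventrolateral white matter of 12 pools (3 per group, 5 mice each) had been sequenced on a NextSeq500. Per the study's methods and the submitters' processing notes, the authors checked reads with FastQC 0.11.4, used TopHat 2.0.10 over bowtie 1.1.2 for alignment to GRCm38, and obtained gene counts from featureCounts. The deposited values are raw counts, not normalised. The annotation release and the strand setting are not given in the sources used here. RNA was amplified during library building and molecules carried no identifiers, so counts are not independent molecules and count-based limits cover counting error only.

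A list of gene names gave a symbol to 45143 of 46078 identifiers (98.0%), and GENCODE M21 gave an exon length to 45229. All 12 pools entered 1 quasi-likelihood model (edgeR 4.0.16 under R 4.3.3) after filterByExpr and TMM scaling, with a coefficient for each group, and glmQLFTest gave two-sided p-values that were adjusted by Benjamini-Hochberg over 15866 genes (threshold 0.05). A standard error is the absolute log2 fold change over the root of the F statistic. TPM used the union of exons as length. Fitted values of the 10 genes and exact permutation tests over pools (all arrangements listed in Python 3.11.15) were read from the same samples. The model was checked on simulated counts. Promoter letters came from RefSeq tables of GRCm38.p6. Alternatives were DESeq2 1.42.0, other scaling factors, no or a stricter filter on low counts, a replicate block, only the pools compared, each pool left out, and for TPM other lengths and no mitochondrial genes.

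Named were all 10 genes whatever their values, from each pathway list up to 4 genes with the largest mean log2 fold change among those called at both ages, plus Hapln3, Tnxb, Cspg4, Ptprz1, Has2, Cd44 and Adamts4, and for each of the 10 genes the 3 genes of nearest profile. Some of the genes so named are not reported here. The genes and the lists were chosen with earlier results of these data known. Replicate numbers were not used to pair the samples. Correlations of deviations were -0.11 to 0.15 between same-numbered and -0.17 to 0.17 between differently numbered pools of different groups. With 3 pools per group such correlations cannot show whether same-numbered pools shared a batch, which the labels do not say. The labels name the pools as separate samples, and p-values measure the spread between them.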

Additional observations from a re-analysis of the deposited data

Results flagged for a closer look

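The difference of the injury effects between the ages was called for 1 of the 10 genes and for 1 gene of the pathway lists. Bcan had a steeper fall with injury at the older age, the difference being -1.83 ± 0.29 on the log2 scale (edgeR, adjusted p = 0.0264), with all 3 middle-aged injured pools below all 3 young injured pools. The value lay between -2.0 and -1.63 when single pools were left out, and the call was kept in 5 of those 12 fits. Ust, the uronyl 2-O-sulfotransferase of dermatan and chondroitin sulfate, had a difference of 1.33 ± 0.24 (edgeR, adjusted p = 0.0472). Its naive level was 58.5 ± 2.10 CPM in young and 21.2 ± 5.81 CPM in middle-aged pools, and its injured level 36.0 ± 1.85 CPM and 32.8 ± 2.94 CPM. The Ust difference lay between 1.18 and 1.57 with single pools left out, and its call was lost in most of those fits, with the highest adjusted p of 0.168 without young injured pool 2. It was also lost with upper quartile factors (adjusted p = 0.0565) and library totals alone (adjusted p = 0.0692).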

How the results depend on the processing

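Of 1040 recomputed values of the 10 genes, 960 kept their direction and their side of the threshold, 36 lost a call, 21 gained 1 and 23 changed sign, and every sign change was in a result that was not called. The counts of genes called with injury were within 1.5 times of the reported ones under each alternative run. The count lower with age in naive tissue (2) was 1 with library totals alone, 1 with the replicate block, 0 with only the pools compared, 3 with no filter (Hapln1 added), and 1 to 2 with single pools left out. The count lower with age in injured tissue (2) was 4 with DESeq2, 1 with median-of-ratios factors, 1 with upper quartile factors, 4 with no filter, 4 with only the pools compared, and 1 to 4 with single pools left out. For the difference of the injury effects, the count of 0 higher was 1 with DESeq2 and 1 with no filter (Tnc in both), and the count of 1 lower was 0 to 1 with single pools left out. The causes were not tested. Numbers were not used to pair the pools (2 of 18 same-numbered and 3 of 36 differently numbered pairs correlated over 0.1). Beside the Tnc age call, the replicate block moved Tnr over the threshold with injury in young mice (0.52, adjusted p = 0.00724). It did the same for Tnr with age in injured tissue (-0.79, adjusted p = 0.0154).

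Sign changes among uncalled results were as follows. Cspg5 with injury in young mice was 0.18 with library totals alone and -0.115 to 0.0868 with single pools left out, and with age in naive tissue it was -0.0064 with upper quartile factors, -0.0092 with no filter, -0.0090 with the replicate block and -0.143 to 0.0775 with single pools left out. Tnr with injury in middle-aged mice was -0.0225 with upper quartile factors and -0.17 to 0.22 with single pools left out. With single pools left out, the age difference in naive tissue was -1.24 to 0.18 for Acan and -0.340 to 0.0304 for Bcan, that in injured tissue -0.99 to 0.0891 for Hapln1 and -0.30 to 0.12 for Hapln4, and the difference of the injury effects -1.28 to 0.13 for Acan, -0.211 to 0.0281 for Hapln2 and -0.0527 to 0.57 for Hapln4. Of 1655 values of named pathway genes, 1614 held, 39 lost a call and 2 changed sign, both of Ptprz1 in young mice (0.14 with library totals alone, and -0.142 to 0.0040 with single pools left out). The longest transcript as length multiplied TPM by 0.806 to 1.07, and leaving out mitochondrial genes by 1.25 to 1.46. Depth limits Acan and Hapln1 most, with 9 to 172 and 2 to 93 reads per pool.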
